A study of Mus musculus with 9 samples.

Results

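The Notch genes examined here are 9 that endothelium is known to use: the receptors Notch1 and Notch4, the ligands Dll4, Jag1 and Jag2, and the target repressors Hey1, Hey2, Heyl and Hes1. They were chosen by name, and 7 of the 9 were among the 9277 genes of the deposited table. Hey2 and Heyl have no row there and were not analysed here. The study sequenced RNA of lung endothelial cells of mice, in 5 libraries of Tie1-CR mice and 4 libraries of Tie1-WT mice. Tie1-CR mice carry a Tie1, an endothelial receptor of the angiopoietin system, that resists the proteolytic cleavage set off by inflammatory insults, and Tie1-WT mice are the wild type controls. All 9 library names carry PBS, which the labels do not explain further. The sources used here do not give strain, age, sex or the way the cells were isolated. Nor do they state that libraries came from different mice. If they did not, p-values cover only the spread among these libraries, which may be technical. The library numbers run on from one genotype to the other, with a gap within Tie1-CR that the labels do not explain. Nor do the labels say whether the numbers record an order of handling. If they do, that order and the genotype cannot be told apart.

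Notch receptors are cut when a ligand on a neighbouring cell pulls on them, first by an ADAM protease and then by gamma-secretase. The freed intracellular domain enters the nucleus, binds the DNA-binding protein RBPJ and switches on repressor genes of the Hes and Hey families. In endothelium, Dll4 and Notch1 restrain sprouting and support arterial identity, Notch4 is a receptor largely restricted to endothelial cells, and Hey1 is a classical endothelial target that BMP signals can also induce. Tie1 is likewise cleaved by metalloproteases and gamma-secretase.

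The libraries held 38208696 to 54408116 counted reads, and levels are given as CPM, the reads of a gene scaled to the same total of counted reads in every library. The 7 measured genes were read 3958 to 46067 times per library, so that counting alone contributes an error of at most 1.59% if reads are independent, which copies made during cDNA amplification would raise. Tie1 itself measured 2433 ± 143 CPM in Tie1-CR and 2136 ± 42.9 CPM in Tie1-WT (SD, n = 5 and 4). Transcript level does not check the genotype, because the change acts on the protein. All 12 endothelial markers looked up were in the table, led by Cldn5 and Pecam1. Of these, 10 differed toward higher levels in Tie1-CR, and 1 was called (Erg, lower). Their summed level was 22335 to 23255 CPM in Tie1-CR against 20000 to 22302 CPM in Tie1-WT. Over all genes, limma with Benjamini-Hochberg adjustment (threshold 0.05) called 119 genes higher and 257 lower in Tie1-CR, and 182 higher and 194 lower with TMM scaling.

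All 7 measured Notch genes had a higher mean in Tie1-CR, and 2 rose past the threshold: the target repressor Hey1 and the ligand Jag2. Their differences ran from 0.15 to 0.53 on the log2(CPM + 1) scale, with a median of 0.23, where the median of all genes was -0.03 and 41.5% of all genes lay above 0. The background of the call is small: 1.28% of all genes were called higher and 2.77% lower, 4.05% in all. Of the 7, 0 were called lower. The Tie1-CR libraries all lay above the Tie1-WT libraries for 3 of the 7 (Notch1, Jag2 and Hey1), against 3.74% of all genes, and all below for 0 of the 7, against 6.74% of all genes (10.5% in either direction). An unadjusted p under 0.05 was reached by 4 of the 7, against 22.3% of all genes. The choice of these genes was made with earlier results of the same libraries known, so the counts describe the genes and test no list. In bulk RNA, more cells of a kind and more RNA per cell cannot be told apart.

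**Figure D1:**
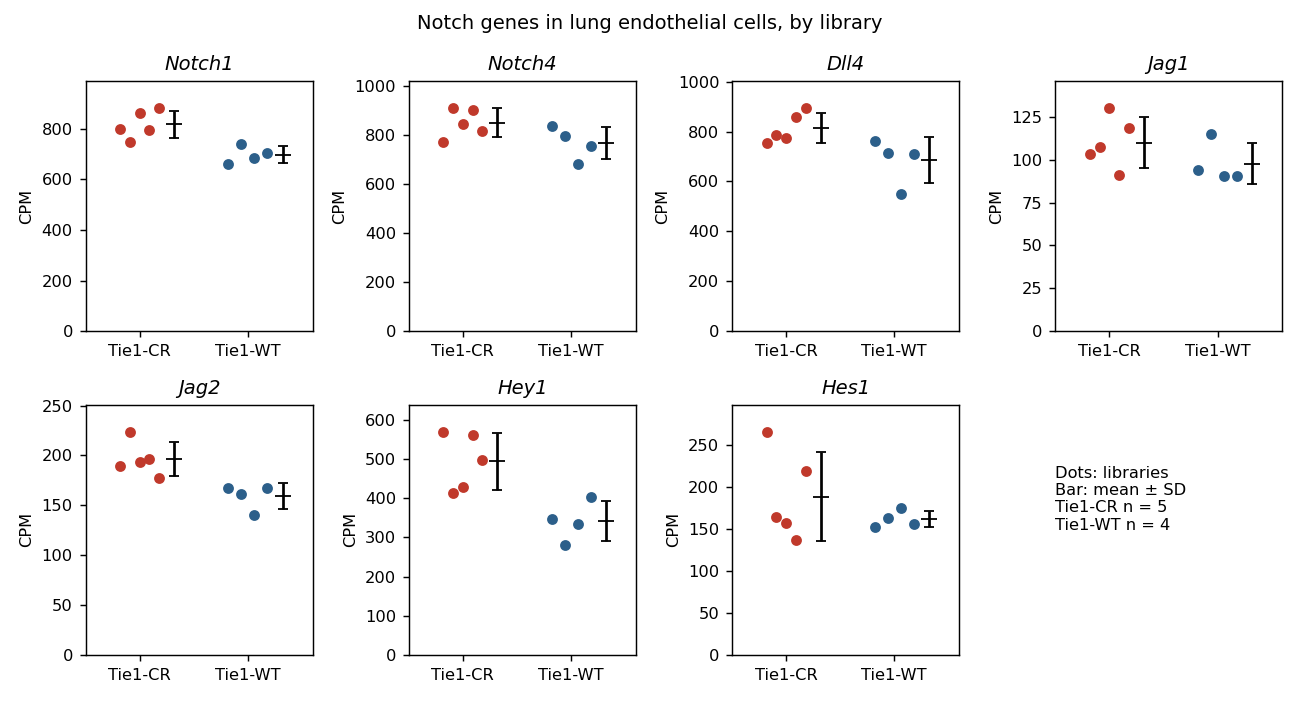
CPM of the 7 measured Notch genes in each library, Tie1-CR (red, n = 5) left of Tie1-WT (blue, n = 4), with the mean ± SD beside each group and each vertical axis starting at 0. All red points lie above all blue points for Notch1, Jag2 and Hey1, while for Hes1 the Tie1-CR libraries spread from 138 to 267 CPM.

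Among the receptors, Notch1 lay higher in every Tie1-CR library without passing the threshold. Notch1, the main Notch receptor of arteries and sprouting vessels, lies on the minus strand of chromosome 2 from 26457903 to 26516663 (GRCm38). It measured 796, 747, 859, 796 and 882 CPM in Tie1-CR, against 659.6, 739, 684 and 705 CPM in Tie1-WT. The groups do not overlap, although the lowest Tie1-CR library and the highest Tie1-WT library differ little. The means were 816 ± 54.1 and 697 ± 33.5 CPM (SD, n = 5 and 4), a log2 difference of 0.23 (95% interval 0.09 to 0.36, SE 0.06, limma adjusted p = 0.0636). The gene passed with library weights (0.27 log2, adjusted p = 0.0227) and without Tie1-CR replicate 2 (0.26 log2, adjusted p = 0.0463). After a correction for GC content and length the difference was 0.16 log2, and with epithelial markers as a covariate 0.14 log2 (limma adjusted p = 0.305 and 0.400).

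Notch4, the receptor that marks endothelium, lies on the plus strand of chromosome 17 from 34564268 to 34588503 and overlapped between the genotypes. It measured 772, 912, 848, 905 and 818 CPM in Tie1-CR, against 836, 798, 683 and 758 CPM in Tie1-WT. All 5 Tie1-CR libraries lay above the Tie1-WT mean, and 3 of them above every Tie1-WT library. The log2 difference was 0.15, with a 95% interval of -0.01 to 0.31 that holds both no difference and one of 1.24-fold (limma adjusted p = 0.258). Without Tie1-WT replicate 3, the lowest library for this gene, the difference was 0.09 log2, and after the correction for GC content and length 0.05 log2. The log2 ratio of Notch4 to Notch1 had a median of -0.02 (range -0.11 to 0.29) in Tie1-CR and 0.11 (range -0.00 to 0.34) in Tie1-WT, in CPM that are not corrected for length. These ranges overlap, with 3 Tie1-CR libraries below every Tie1-WT library.

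Among the ligands, Jag2 rose and Dll4 and Jag1 had higher means without passing. Jag2 encodes a Jagged ligand of Notch receptors and lies on the minus strand of chromosome 12 from 112907819 to 112929776. It measured 189.8, 224, 194, 197 and 177 CPM in Tie1-CR, against 168, 162, 141 and 168 CPM in Tie1-WT. Every Tie1-CR library was above every Tie1-WT library. The means were 196 ± 17.2 and 159 ± 12.8 CPM (SD, n = 5 and 4), and the gene rose 1.23-fold (log2 difference 0.30, 95% interval 0.14 to 0.46, SE 0.07, limma adjusted p = 0.0461).

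The Jag2 call sits close to the threshold. It was kept when Tie1-CR replicate 5 was left out (adjusted p = 0.0413) and ended when any other single library was left out. The adjusted p was then 0.105, 0.100, 0.109 and 0.0558 without Tie1-WT replicates 1, 2, 3 and 4, and 0.0586, 0.0637, 0.0745 and 0.0908 without Tie1-CR replicates 1, 2, 3 and 4, with differences from 0.24 to 0.32 log2. It also ended with library weights, with the mural and fibroblast markers as a covariate and with epithelial markers as a covariate (limma adjusted p = 0.0514, 0.0624 and 0.206, at 0.24, 0.30 and 0.31 log2). The replicate block, a fit with the replicate number as a factor, ended it too (0.33 log2, limma adjusted p = 0.0578). After the correction for GC content and length the difference was 0.20 log2, less than the 0.30 log2 without it (limma adjusted p = 0.152). The longest annotated Jag2 transcript is 61.9% G or C, the highest share among the 7 genes, where Jag1 is lowest at 48.8%.

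The promoter of Jag2 is also rich in G and C, and its sequence is shown beside those of both receptors for comparison. Each is the 250 bases before the gene start in RefSeq (GRCm38.p6), written 5′ to 3′ on the strand of the gene, and capitals mark each CG dinucleotide. Jag2 is from chr12:112929496-112929745 (minus strand), Notch1 from chr2:26503823-26504072 (minus strand) and Notch4 from chr17:34564045-34564294 (plus strand). RefSeq and GENCODE place some starts differently. The Jag2 window ends at 112929745, close to the GENCODE start at 112929776 but inside the span given above. The Notch1 window ends at 26504072, far inside a span whose GENCODE start is 26516663, so it is not the promoter of that start. The Notch4 window runs into its span, ending at 34564294 where the GENCODE start is 34564268.
Jag2: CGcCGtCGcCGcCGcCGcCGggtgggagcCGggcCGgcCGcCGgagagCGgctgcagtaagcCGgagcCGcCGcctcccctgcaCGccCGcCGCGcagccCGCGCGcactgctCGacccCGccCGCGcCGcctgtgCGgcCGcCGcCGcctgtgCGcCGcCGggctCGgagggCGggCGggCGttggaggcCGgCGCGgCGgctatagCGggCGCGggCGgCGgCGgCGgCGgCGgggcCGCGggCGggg
Notch1: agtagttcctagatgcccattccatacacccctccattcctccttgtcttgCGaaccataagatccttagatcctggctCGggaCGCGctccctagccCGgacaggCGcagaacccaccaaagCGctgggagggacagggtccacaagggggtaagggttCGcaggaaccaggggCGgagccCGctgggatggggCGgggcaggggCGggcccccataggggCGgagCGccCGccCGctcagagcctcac
Notch4: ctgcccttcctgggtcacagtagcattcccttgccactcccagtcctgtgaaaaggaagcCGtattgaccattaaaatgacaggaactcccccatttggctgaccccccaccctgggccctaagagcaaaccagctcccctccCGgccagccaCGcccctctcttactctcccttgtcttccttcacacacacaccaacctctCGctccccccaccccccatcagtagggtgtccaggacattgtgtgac
The Jag2 window is 87.2% G or C with 54 CG dinucleotides, and 12 of the 32851 RefSeq promoter windows of this length have a higher G and C share. The Notch1 window is 66.0% G or C with 16 CG dinucleotides, and the Notch4 window 58.4% with 4. Of the 7 measured genes, 5 matched an entry of the promoter table (Notch1, Notch4, Dll4, Jag1 and Jag2). The letters TGGGAA, the core of RBPJ sites, and the longer GTGGGAA that contains them were searched on both strands. Neither is in any of the 5 windows, while 21.6% and 5.42% of all promoter windows of this length hold them. No match says only that these letters are not in these windows.

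Dll4, the ligand that arterial and sprouting endothelial cells present to Notch1, lies on the plus strand of chromosome 2 from 119325784 to 119335962. It measured 754, 786, 775, 859.5 and 895 CPM in Tie1-CR, against 763, 714, 551 and 708 CPM in Tie1-WT. In Tie1-CR, 4 of the 5 libraries lay above every Tie1-WT library, and Tie1-WT replicate 3 stood lowest. The log2 difference was 0.26 (95% interval 0.05 to 0.46, limma adjusted p = 0.129), and 0.16 without Tie1-WT replicate 3 (adjusted p = 0.251). The start of the gene overlaps the antisense transcript Gm14207, which is itself in the table at 10.4 ± 1.09 CPM in Tie1-CR and 9.13 ± 0.942 CPM in Tie1-WT (SD, n = 5 and 4). Whether counting used strand is not given in the sources used here, so reads of the pair cannot be told apart in the shared stretch.

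Jag1, the Jagged ligand expressed in endothelium and in smooth muscle, was the least abundant ligand. It measured 103, 107, 130.2, 91.0 and 118 CPM in Tie1-CR, against 94.2, 115, 90.6 and 90.4 CPM in Tie1-WT. The groups overlap over most of their range, with 2 of the 5 Tie1-CR libraries above every Tie1-WT library. The log2 difference of 0.17 had a 95% interval of -0.06 to 0.39 (limma adjusted p = 0.362), and it was 0.06 log2 after the correction for GC content and length. Within a library, Jag2 exceeded Jag1 in CPM by a median of 0.87 log2 in Tie1-CR (range 0.57 to 1.10) and 0.73 in Tie1-WT (range 0.49 to 0.88). The ratio of Dll4 to Jag1 had a median of 2.86 log2 in Tie1-CR (range 2.56 to 3.23) and 2.79 in Tie1-WT (range 2.59 to 3.00). Both ratios overlap between the genotypes, and no test was run on them.

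Among the target repressors, Hey1 had the largest difference of the 7 genes and Hes1 was scattered. Hey1 encodes a basic helix-loop-helix repressor of arterial endothelium and lies on the minus strand of chromosome 3 from 8663359 to 8667256. It measured 571, 413, 429.9, 563 and 497 CPM in Tie1-CR, against 348, 281, 335 and 404 CPM in Tie1-WT. Every Tie1-CR library lay above every Tie1-WT library. The means were 495 ± 72.9 and 342 ± 50.5 CPM (SD, n = 5 and 4), and the gene rose 1.44-fold (log2 difference 0.53, 95% interval 0.27 to 0.79, SE 0.12, limma adjusted p = 0.0353). Only 0.388% of all genes had a larger difference toward Tie1-CR.

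The Hey1 difference kept its size better than its call. It lay between 0.44 and 0.61 log2 with each library left out and between 0.49 and 0.56 log2 in the other fits. The call held after the correction for GC content and length (0.54 log2, limma adjusted p = 0.0327) and with quantile normalization (0.49 log2, adjusted p = 0.0486). It ended without Tie1-WT replicate 1, 2 or 3 (limma adjusted p = 0.105, 0.0948 and 0.0771) and without Tie1-CR replicate 1, 4 or 5 (0.0568, 0.0773 and 0.0634). With epithelial markers as a covariate the difference was as large, at 0.55 log2, while its SE was 0.15 and the call ended (limma adjusted p = 0.162).

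Hes1, a repressor that Notch and several other signals induce, lies on the plus strand of chromosome 16 from 30064384 to 30067796. It measured 267, 164, 157, 138 and 219 CPM in Tie1-CR, against 153, 163, 176 and 156 CPM in Tie1-WT. The Tie1-CR libraries reach both higher and lower than all Tie1-WT libraries, and the coefficient of variation was 28.0% in Tie1-CR against 6.18% in Tie1-WT. The log2 difference was 0.18, with a 95% interval of -0.17 to 0.53 (limma adjusted p = 0.541), and 0.04 without Tie1-CR replicate 1. Hey1 and Hes1 were both highest in Tie1-CR replicate 1, but in Tie1-CR replicate 4 Hey1 was second highest and Hes1 lowest. The log2 ratio of Hey1 to Hes1 had a median of 1.33 in Tie1-CR (range 1.09 to 2.03) and 1.05 in Tie1-WT (range 0.78 to 1.36), which overlap.

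**Figure D2:**
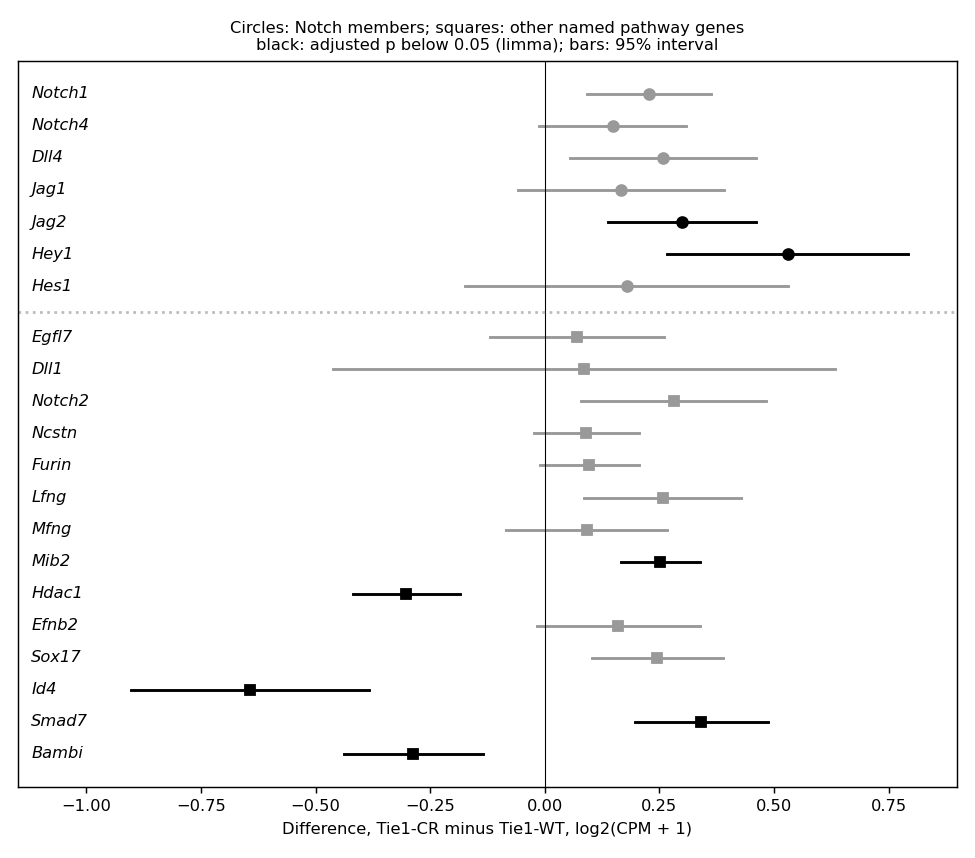
Difference in log2(CPM + 1), Tie1-CR minus Tie1-WT, for the 7 measured Notch genes (circles) and other named pathway genes (squares), with 95% intervals; black marks genes past the threshold (limma adjusted p below 0.05). Hey1 (0.53) and Jag2 (0.30) are black among the circles, and all 7 circles lie right of 0.

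Levels of different genes can be compared only per length, and the next values are CPM per kilobase of annotated exon (GENCODE M21, all exons of a gene merged). Dll4 stood highest at 211 ± 15.7 in Tie1-CR and 178 ± 23.9 in Tie1-WT. Hey1 followed at 152 ± 22.3 in Tie1-CR and 105 ± 15.5 in Tie1-WT, and Notch4 at 106 ± 7.34 and 95.3 ± 8.15. Hes1 measured 92.7 ± 26.0 CPM per kilobase in Tie1-CR and 79.6 ± 4.92 in Tie1-WT, and Notch1 57.3 ± 3.80 and 49.0 ± 2.35. The Jagged ligands were lowest, Jag2 at 28.2 ± 2.46 and 22.9 ± 1.83 and Jag1 at 18.9 ± 2.56 and 16.8 ± 2.03 (all SD, n = 5 Tie1-CR and 4 Tie1-WT). The order of the means was the same in both genotypes. Neighbours that overlap between libraries are Notch4 and Hes1 in both genotypes, and Hey1 and Notch4 in Tie1-WT. In Tie1-CR the lowest Hey1 library, at 127, lay above the highest Notch4 library, at 113. Among the 9031 annotated genes of the table, the mean level per kilobase put Dll4 at percentile 98.3, Hey1 at 97.1 and Jag1 at 71.4.

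**Figure D3:**
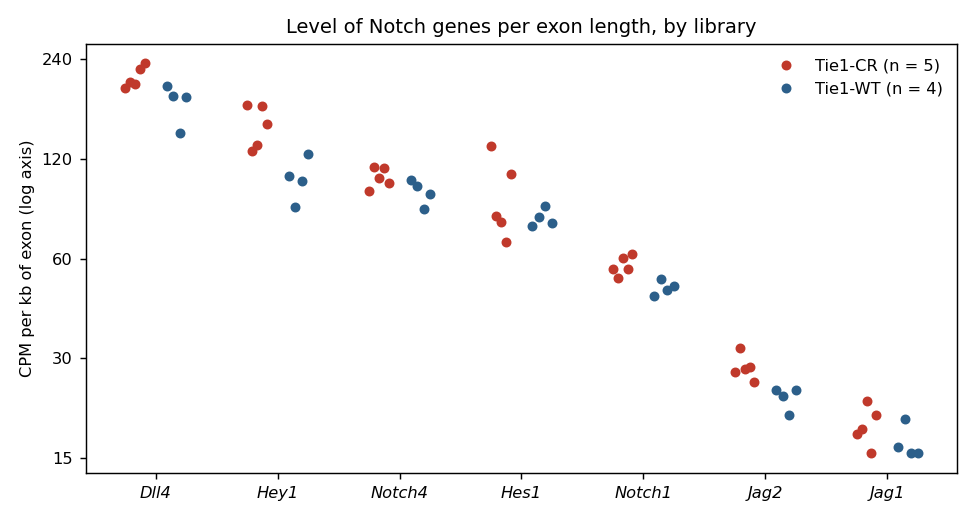
CPM per kilobase of annotated exon for the 7 Notch genes in each library, on a log axis, Tie1-CR (red) left of Tie1-WT (blue) and genes ordered by their Tie1-WT mean. Dll4 lies highest, between 196 and 232 in Tie1-CR and between 143 and 198 in Tie1-WT, and Jag1 lowest.

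The 7 genes did not share a single profile across the libraries. In Tie1-CR, replicate 1 was highest for Hey1 and Hes1 and lowest for Notch4 and Dll4, and replicate 5 was highest for Notch1 and Dll4 and lowest for Jag2. In Tie1-WT, replicate 3 was lowest for 3 genes (Notch4, Dll4 and Jag2) and highest for Hes1. By the root mean square difference between log2 profiles over the 9 libraries, each centred on the mean of its 2 genotype means so that the genotype difference counts toward likeness, the 5 genes most like Hey1 were Ackr2, Sox18, Ephx1, Zcchc3 and Tagap1, at 0.14 to 0.16 log2. Ackr2 encodes an atypical chemokine receptor, Sox18 an endothelial transcription factor and Ephx1 an epoxide hydrolase. Ackr2 ranged from 359 to 401 CPM in Tie1-CR and from 243 to 319 CPM in Tie1-WT. Sox18 ranged from 990.4 to 1240.05 CPM in Tie1-CR and from 707 to 1044 CPM in Tie1-WT, so that 4 of its 5 Tie1-CR libraries lay above every Tie1-WT library. Among the 9276 genes compared, Dll4 ranked 472nd in likeness to Hey1, Notch1 487th and Jag2 515th, at 0.26 log2 each. Notch4 ranked 1936th, Hes1 3741st and Jag1 6100th.

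**Figure D4:**
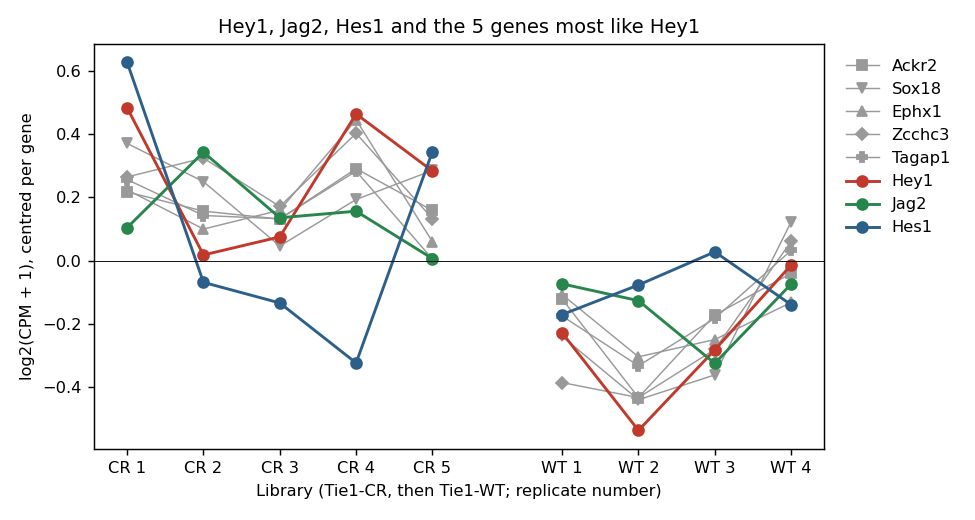
log2(CPM + 1) of Hey1, Jag2 and Hes1 (coloured) and of the 5 genes most like Hey1 (grey) in each library, centred per gene on the mean of its genotype means; lines only join the points of a gene, as libraries have no order. Hey1 lies above its centre in all 5 Tie1-CR libraries and below it in all 4 Tie1-WT libraries, while Hes1 crosses it in both.

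Of 53 other genes of the Notch machinery in the table, in 5 lists, 2 were called (Mib2 higher and Hdac1 lower). That is 3.77% of them, close to the 4.05% of all genes called. Of 3 other receptors and ligands in the table (of 8 looked up), 0 were called, with a median difference of 0.09 log2. Notch2, a more widely expressed receptor, measured 36.4 ± 5.02 CPM in Tie1-CR and 29.5 ± 1.47 CPM in Tie1-WT (SD, n = 5 and 4; limma adjusted p = 0.104), and passed with library weights (0.0322) or without Tie1-CR replicate 1 (0.0427). Dll1, another ligand, was scattered at 287 ± 101.3 and 261 ± 58.8 CPM, and Egfl7, a secreted endothelial protein that can modulate Notch, measured 2095 ± 210.4 and 1992 ± 167 CPM. Of 8 genes that cut the receptor (of 10 looked up), 0 were called, with differences from -0.02 to 0.10 log2. Ncstn, a gamma-secretase subunit, measured 319 ± 14.9 CPM in Tie1-CR and 300.0 ± 15.6 CPM in Tie1-WT, and Furin, the convertase that cuts the Notch precursor, 292 ± 15.5 and 273 ± 3.10 CPM. Of 7 glycosylation genes (of 7), 0 were called. Lfng, a Fringe enzyme that tunes which ligand a receptor answers to, measured 255 ± 12.1 CPM in Tie1-CR and 214 ± 28.3 CPM in Tie1-WT (0.26 log2, limma adjusted p = 0.0834), and passed with library weights (adjusted p = 0.0478) or without Tie1-WT replicate 4 (adjusted p = 0.0133). Mfng, a second Fringe, measured 195 ± 11.9 and 184 ± 23.4 CPM.

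Ubiquitin ligases and adaptors that act on ligands and receptors gave 1 rise among 15 genes (of 18 looked up). All Tie1-CR libraries lay above Tie1-WT for 3 of the 15 and below for 1, against 3.74% and 6.74% of all genes. Beside Mib2 these were Numb (0.17 log2), Numbl (0.26) and, below, Neurl3 (-0.40), picked after their values were seen. Their limma adjusted p was 0.0737, 0.0784 and 0.0784. Mib2, a ligase that promotes ligand endocytosis, measured 157, 149, 152, 153 and 152 CPM in Tie1-CR, against 132, 128, 127 and 125 CPM in Tie1-WT. The groups stand well apart, and the rise of 0.25 log2 (SE 0.04, limma adjusted p = 0.00787) held with each library left out. It ended with epithelial markers as a covariate (0.27 log2, limma adjusted p = 0.0756) and after the correction for GC content and length (0.17 log2, 0.0666). With the replicate block it also ended (0.25 log2, limma adjusted p = 0.0578). The nuclear complex and its corepressors gave 1 fall among 20 genes (of 22). Hdac1, a histone deacetylase of corepressor complexes, measured 29.7 ± 1.11 CPM in Tie1-CR and 36.9 ± 2.14 CPM in Tie1-WT, a difference of -0.30 log2 (limma adjusted p = 0.0132). That call ended without Tie1-WT replicate 1 (adjusted p = 0.0653), with epithelial markers as a covariate (adjusted p = 0.127) and with the replicate block (limma adjusted p = 0.0589). Hdac1 serves many complexes outside the Notch pathway.

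Of 14 other genes known to respond to Notch (of 21 looked up), 0 were called, 9 lay above 0 and the median was 0.09 log2, with differences from -0.79 to 0.46. Efnb2, the ephrin of arterial endothelium, measured 1267 ± 119 CPM in Tie1-CR and 1132 ± 88.5 CPM in Tie1-WT (limma adjusted p = 0.267). Sox17, an arterial transcription factor, measured 663 ± 46.2 and 559 ± 35.5 CPM, with every Tie1-CR library above every Tie1-WT library (limma adjusted p = 0.0603). The gap junction genes of arteries, chosen after their values were seen, measured 482 ± 89.0 CPM in Tie1-CR and 353 ± 93.6 CPM in Tie1-WT for Gja4 and 140.4 ± 23.4 and 105 ± 7.52 CPM for Gja5 (SD, n = 5 and 4; limma adjusted p = 0.130 and 0.0633). Other genes of the list, also picked after their values were seen, lay lower in Tie1-CR without passing. Cdkn1a, a cell cycle inhibitor, had the largest difference of the list at -0.79 log2, with a mean of 236 CPM in Tie1-CR and 420.04 CPM in Tie1-WT (limma adjusted p = 0.0928). Ccnd1 and Myc, which promote the cell cycle, differed by -0.41 and -0.43 log2 (limma adjusted p = 0.0608 and 0.140), and Nrarp, a feedback inhibitor of Notch, by -0.19 log2 (0.661). Gja4 passed without Tie1-WT replicate 4 (adjusted p = 0.0442), and Gja5 passed with library weights (0.0183) or without Tie1-CR replicate 2 (0.0193).

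BMP signals act on some of the same targets, and their genes gave 1 rise and 2 falls among 12 (of 13 looked up), with 10 above 0 and a median of 0.19 log2. Over all genes, 1.28% were called higher and 2.77% lower. Tie1-CR libraries all lay above Tie1-WT for 3 of the 12 and all below for 2, against 3.74% and 6.74% of all genes. Those 3 were Smad7, Acvrl1 (0.23 log2, limma adjusted p = 0.0733) and Bmpr2 (0.15 log2, 0.131). Smad6 and Id3 differed by 0.34 and 0.32 log2 (limma adjusted p = 0.0729 and 0.115). Acvrl1, Bmpr2, Smad6 and Id3 were picked after their values were seen. Smad7, an inhibitor of TGF-beta and BMP signals, measured 754, 681, 694, 622 and 755 CPM in Tie1-CR, against 563, 560.4, 514 and 571 CPM in Tie1-WT. The groups do not overlap, and the rise was 0.34 log2 (limma adjusted p = 0.0205). That call ended without Tie1-WT replicate 1, 2 or 3 (adjusted p = 0.0675, 0.0560 and 0.0565), after the correction for GC content and length (0.0578) and with epithelial markers as a covariate (0.170). The replicate block ended it too (limma adjusted p = 0.0802). Id4, an inhibitor of helix-loop-helix factors, fell to 7.58 ± 0.666 CPM in Tie1-CR, against 12.5 ± 2.23 CPM in Tie1-WT (-0.64 log2, limma adjusted p = 0.0158). The Id4 call ended without Tie1-WT replicate 1 or 2 (adjusted p = 0.0676 and 0.0550) and with epithelial markers as a covariate (0.144). Bambi, a decoy receptor, fell to 30.1 ± 2.26 CPM in Tie1-CR, against 36.9 ± 3.07 CPM in Tie1-WT (-0.29 log2, limma adjusted p = 0.0440). The Bambi call was kept without replicate 4 of Tie1-WT or replicate 2 of Tie1-CR and ended without any other library, at adjusted p from 0.0704 to 0.116. It also ended with TMM scaling (0.0591), median-of-ratios scaling (0.0597), quantile normalization (0.0658) and the replicate block (limma adjusted p = 0.0694). The correction for GC content and length (0.154), epithelial markers as a covariate (0.206) and mural and fibroblast markers as a covariate (0.0632) ended it too.

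**Figure D5:**
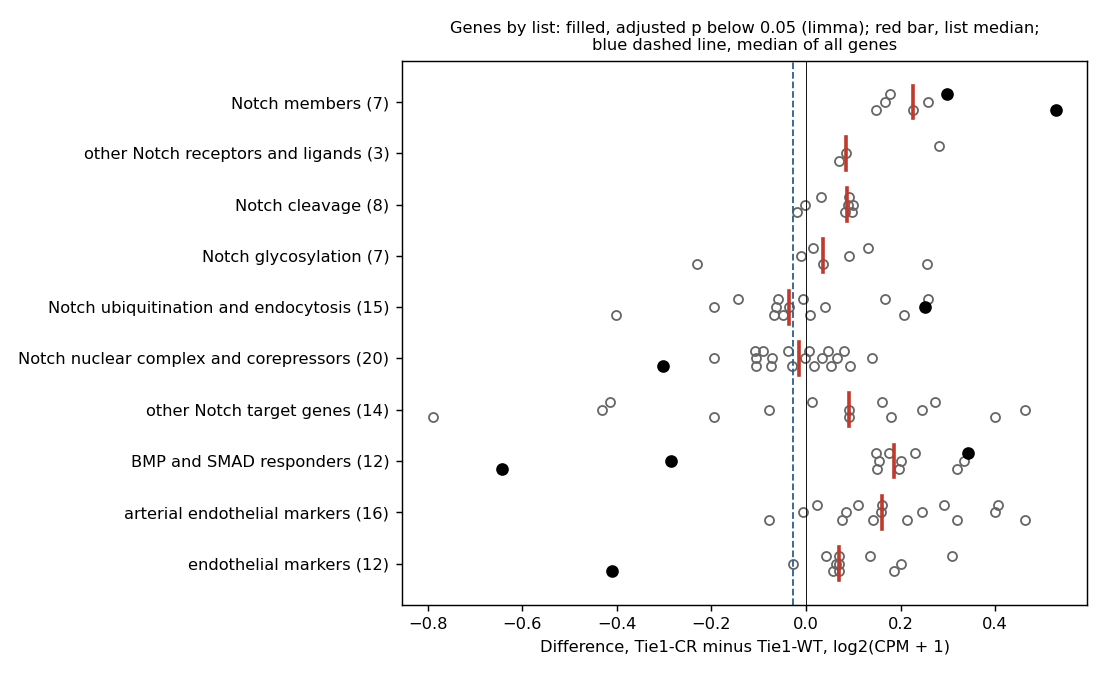
Difference in log2(CPM + 1), Tie1-CR minus Tie1-WT, of each gene in the Notch, BMP and endothelial lists, with the number of measured genes in brackets; filled points passed the threshold (limma), red bars are list medians and the blue dashed line is the median of all genes (-0.03). The 7 Notch members have a median of 0.23, while the nuclear complex and the ubiquitination genes have medians of -0.02 and -0.03.

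Markers of arterial endothelium, the cells in which several of these Notch genes are strongest, lay higher beside them. Of 16 in the table (of 18 looked up), 14 lay above 0, 0 were called and the median was 0.16 log2. Their summed level was 6158 to 7063 CPM in Tie1-CR against 5218 to 5923 CPM in Tie1-WT, which do not overlap. Beside Efnb2, given above, Sox7, an endothelial transcription factor, was at 905 ± 93.9 CPM in Tie1-CR and 685 ± 98.4 CPM in Tie1-WT (SD, n = 5 and 4; limma adjusted p = 0.0507), with every Tie1-CR library above every Tie1-WT library. The list holds Gja4, Gja5, Efnb2 and Sox17, which are also Notch targets. Venous markers had a median of -0.06 log2 over 12 genes, with 5 above 0 and 1 called higher (Ephb4, 0.34 log2). Their differences ran from -0.33 to 0.40 log2, and Vwf, highest in CPM, differed by 0.28 log2 (limma adjusted p = 0.198). All Tie1-CR libraries lay above Tie1-WT for 2 of the 12 venous and 3 of the 16 arterial markers, against 3.74% of all genes. All lay below for 0 of either list, against 6.74%. The venous sum was 5485 to 7159 CPM in Tie1-CR and 5245 to 5754 CPM in Tie1-WT, which overlap. General capillary markers had a median of 0.09 log2 over 10 genes and aerocyte markers 0.04 over 11. In each of these capillary lists 8 lay above 0 and 0 were called. A summed level without overlap was not particular to the arterial list. The 12 endothelial markers, at the sums given above, did not overlap either. Of them 10 lay above 0, with a median of 0.07 log2 and differences from -0.41 to 0.31. The 12 BMP genes summed to 13186 to 14753 CPM in Tie1-CR and 11245 to 12694 CPM in Tie1-WT, also without overlap. The part of a shift in endothelial subtypes in the Notch differences was not tested.

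Smooth muscle and pericytes also express Notch genes, but their transcripts were sparse. Marker genes named here were picked out by their calls or by their absence, after the values were seen. Of 16 mural markers, 12 had no row in the table, among them Notch3, Pdgfrb, Rgs5 and Cspg4, and the other 4 summed to 36.7 to 89.5 CPM in Tie1-CR and 40.2 to 74.6 CPM in Tie1-WT. Fibroblast markers had 7 of 12 without a row and summed to 20.7 to 90.9 and 25.5 to 100.2 CPM. Epithelial markers had 10 of 26 without a row, among them Epcam, and the 16 others had a median difference of 0.91 log2, the highest of all lists looked up, with 12 above 0 and 3 called higher (Sftpd, Cyp2f2 and Cbr2). The alveolar type 1 markers Ager, Akap5, Aqp5 and Hopx were the 4 below 0, at -0.54, -0.46, -0.25 and -0.17 log2, with 0 called. The summed level of the list was 790.0 to 1239 CPM in Tie1-CR and 512 to 1004 CPM in Tie1-WT. Of 21 leukocyte markers, 20 had no row, Ptprc included, and Cd68 was at 4.20 to 7.04 CPM in Tie1-CR and 8.89 to 12.0 CPM in Tie1-WT (-0.90 log2, limma adjusted p = 0.00640). The Cd68 call ended with epithelial markers as a covariate (adjusted p = 0.0756). Of 10 platelet and red cell markers, 3 had a row, with 0 called. With epithelial markers as a covariate, Hey1 differed by 0.55 log2 and Jag2 by 0.31 log2, and both calls ended (limma adjusted p = 0.162 and 0.206). With the mural and fibroblast markers as a covariate, Hey1 differed by 0.52 log2 and kept its call, and Jag2 differed by 0.30 log2 and lost it (limma adjusted p = 0.0624).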

How the data were processed

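The authors deposited 1 table for all 9 libraries, whose CPM values were made by dividing read counts by the library total, as the values themselves show. The table is named as TPM, but all values (100%) are whole multiples of a step particular to their library, within 0.01 reads. The labels' protocols name a PicoPure kit for RNA and, for the libraries, the SMARTer Ultra Low kit, a method with cDNA amplification. STAR 2.7 and the builds GRCm38.p6 and mm10 are named in the submitters' processing notes, and the sources used here give no counting tool, annotation or gene filter. The table holds 9277 genes, each at 10.0 CPM or more in some library, with 98.3% to 98.6% of the counted reads.

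Values were used as log2(CPM + 1), which understates changes of low genes, and requiring 1 CPM or more in 4 libraries removed no gene. The whole table was tested with limma 3.58.1 in R 4.3.3, with a trended prior and two-sided, Tie1-CR minus Tie1-WT, with Benjamini-Hochberg adjustment over all genes. Adjusted p values come from this test. Members and lists were chosen with earlier results of these data known. The named genes are the members, the called genes of each pathway list (or else its 2 most abundant and the 1 with the smallest p), up to 2 markers of a list by mean CPM over all libraries and the 5 genes most like Hey1. Positions and exon lengths are from GENCODE M21 (GRCm38), matched to 9031 genes (97.3%), and promoters from RefSeq. Alternatives covered pseudocount, filter, scaling, variance model, replicate block, marker covariates, GC content and length, and each library left out. Count tests were not run on the reads that these steps imply. Plots used matplotlib 3.10.9.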

Additional observations from a re-analysis of the deposited data

Results flagged for a closer look

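Jag1 was higher in Tie1-WT replicate 2, at 115 CPM, than in the next Tie1-WT library, at 94.2 CPM, a gap of 0.846 of the range of the group, above the 95% limit of Dixon's test for 4 libraries. Without that library the Jag1 difference was 0.25 log2, against 0.17 with it (limma adjusted p = 0.204). The gamma-secretase subunit Ncstn was highest in Tie1-CR replicate 4, at 346 CPM against 315 CPM in the next library (gap 0.887 of the range, also above the limit). Ncstn was also highest in Tie1-WT replicate 4, at 323 CPM against 295 CPM in the next library (gap 0.838 of the range, above the limit). Among 58 groups of libraries examined in this way, chance flags about 1 in 20.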

How the results depend on the processing

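All 7 Notch genes stayed above 0 in each of the 22 alternatives, and Notch4, Dll4, Jag1 and Hes1 passed in none. The alternative without the filter repeats the main fit, since the filter removed no gene. With each library left out, the differences ran from 0.20 to 0.26 log2 for Notch1, 0.09 to 0.19 for Notch4, 0.16 to 0.31 for Dll4, 0.10 to 0.25 for Jag1, 0.24 to 0.33 for Jag2, 0.44 to 0.61 for Hey1 and 0.04 to 0.28 for Hes1. The number of the 7 called, 2 over all libraries, was then 0 to 2, and the number of all genes called 60 to 355, 6 to 110 higher and 54 to 245 lower. The number of the 7 called was 0 without replicate 1, 2 or 3 of Tie1-WT or replicate 1 or 4 of Tie1-CR. It was 1 without replicate 4 of Tie1-WT or replicate 3 or 5 of Tie1-CR. Without replicate 2 of Tie1-CR it was 2, Hey1 and Notch1, so Hey1 and Jag2 passed together in none of these fits. The cause of these losses was not tested, and each of these fits also holds fewer libraries.

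With library weights 661 genes were called, 245 higher and 416 lower. Notch1 (0.27 log2) and Hey1 then passed and Jag2 (0.24) did not. The labels do not say whether libraries with the same number in their titles are paired. Same-numbered libraries had deviation correlations of -0.14, 0.0041, -0.060 and 0.19, and 1 of 4 correlated best with its own number. Such correlations cannot decide whether the libraries were paired. The replicate block called 183 genes, 38 higher and 145 lower, with Hey1 as the 1 of the 7 called and Jag2 at 0.33 log2. With epithelial markers as a covariate 24 genes were called, 1 higher and 23 lower, and 0 of the 7, with Jag2 at 0.31 and Hey1 at 0.55 log2. With mural and fibroblast markers, and after the correction for GC content and length, Hey1 was the 1 of the 7 called. Jag2 did not pass in either, at 0.30 and 0.20 log2, and the correction called 163 genes lower. TMM and median-of-ratios scaling called 182 genes higher and quantile normalization 183, with the same 2 of the 7. Dll1 changed sign with the block (-0.064 log2), with epithelial markers (-0.068), without replicate 4 of Tie1-WT (-0.046) and without replicate 5 of Tie1-CR (-0.064), and Egfl7 with epithelial markers (-0.037). The count tests planned with 2 further tools were not run. Genes without a row in the table cannot be assessed.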
